A study of Mus musculus with 24 samples.

Results

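Genes of the p53 pathway were examined in the livers of mice that lack 8-oxoguanine DNA glycosylase (OGG1), an enzyme that removes oxidized guanine from DNA at the start of base excision repair. The set is 10 genes listed by name, which are *Trp53* itself, its negative regulator *Mdm2*, and the p53 target and damage response genes *Cdkn1a*, *Ccng1*, *Sesn1*, *Gadd45a*, *Gadd45b*, *Bax*, *Bbc3* and *Pmaip1*. A gene was taken as measured when at least 1 probe set of the array carried its symbol and no other in the platform table. By this rule 7 of the 10 genes were measured, of 19938 genes in all, each by 1 probe set. *Cdkn1a* is named only on a probe set with several symbols, *Trp53* and *Bax* are named on none with a single symbol, and these 3 genes were not analysed here.

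Liver RNA of 24 male C57BL6 mice was hybridized to Mouse Gene ST arrays, 1 array per mouse, with 6 mice in each of 4 groups. The strain is written as the labels give it, and the methods describe backcrossing to C57BL/6J. The groups were wild-type (WT) mice on chow, *Ogg1*-/- mice on chow, WT mice on a high-fat diet (HFD) and *Ogg1*-/- mice on the HFD. According to the labels, mice entered the study at 10 weeks of age, were housed singly and had free access to their diet for 10 weeks, whereas the methods give a later starting age. The *Ogg1*-/- allele is carried in every tissue, so the whole liver of the null mouse is compared with that of a WT mouse, and cell types were not separated.

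p53 is a transcription factor that is held at low levels by MDM2, an E3 ubiquitin ligase that marks it for degradation. DNA damage activates kinases that release p53 from MDM2, and p53 then switches on genes for growth arrest, repair and cell death, as well as *Mdm2* itself, which closes a feedback loop. Cyclin G1, encoded by *Ccng1*, is a well-known p53 target. Much of p53 regulation acts on the protein, which arrays do not measure.

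The 250 bases before the annotated transcription start are shown for 4 measured genes, the 3 that differed on the HFD and *Gadd45a*, as these windows held a match to the 10-base p53 half-site consensus. The sequences were taken from RefSeq on build GRCm38.p6. Capitals mark the match, and each sequence is written 5′ to 3′ on the strand of its gene. The windows lie at chr10:117710759-117711008 on the minus strand for *Mdm2*, chr11:40755287-40755536 on the minus strand for *Ccng1*, chr10:41887189-41887438 on the plus strand for a downstream start of *Sesn1*, and chr6:67037408-67037657 on the minus strand for *Gadd45a*.

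Mdm2: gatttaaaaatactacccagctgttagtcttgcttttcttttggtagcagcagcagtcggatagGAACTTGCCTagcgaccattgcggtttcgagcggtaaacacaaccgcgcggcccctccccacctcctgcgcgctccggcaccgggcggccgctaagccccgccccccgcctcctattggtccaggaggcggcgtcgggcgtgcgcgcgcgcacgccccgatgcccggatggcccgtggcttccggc

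Ccng1: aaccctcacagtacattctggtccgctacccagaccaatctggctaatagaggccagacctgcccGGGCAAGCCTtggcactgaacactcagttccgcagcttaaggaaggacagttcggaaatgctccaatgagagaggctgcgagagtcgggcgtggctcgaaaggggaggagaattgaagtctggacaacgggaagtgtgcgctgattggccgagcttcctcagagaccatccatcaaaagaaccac

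Sesn1: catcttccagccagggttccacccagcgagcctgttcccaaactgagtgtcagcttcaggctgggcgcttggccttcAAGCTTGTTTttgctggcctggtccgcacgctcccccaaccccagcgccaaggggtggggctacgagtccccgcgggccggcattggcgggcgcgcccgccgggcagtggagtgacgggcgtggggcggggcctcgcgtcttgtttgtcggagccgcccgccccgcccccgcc

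Gadd45a: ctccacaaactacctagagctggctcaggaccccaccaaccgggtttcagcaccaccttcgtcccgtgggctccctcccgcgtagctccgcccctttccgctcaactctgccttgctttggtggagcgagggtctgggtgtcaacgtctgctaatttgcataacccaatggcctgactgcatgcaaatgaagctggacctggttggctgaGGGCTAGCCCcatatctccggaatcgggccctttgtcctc

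Counted from the transcription start, the match began at position -186 in *Mdm2*, -185 in *Ccng1*, -173 in *Sesn1* and -40 in *Gadd45a*. Windows were found for 6 of the 7 measured genes, and none was found for *Pmaip1*. The single window of *Gadd45b*, the upstream window of *Sesn1* and all 3 windows of *Bbc3* held no match. Among all 32851 promoter windows of this length, 7.13% held one. The E-box CACGTG, a site read by clock and MYC-type factors, lay in the window of *Gadd45b* and in 1 window of *Bbc3*, compared with 6.02% of all windows. The D-box TTATGTAA was in none of these genes' windows and in 0.819% of all windows. All 3 motifs were searched on both strands and none of the matches overlapped. A match shows only that the letters are present, and both *Gadd45a*, which did not pass the test on the HFD, and *Mdm2*, which did, have one.

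Values are log2 signals per probe set, made by robust multiarray averaging (RMA) according to the submitters' notes, and they were compared between groups within a probe set only. The *Ogg1* probe set was lower in *Ogg1*-/- livers, with log2 values of 5.93 ± 0.06 (SD, n = 6) on chow and 5.87 ± 0.13 (SD, n = 6) on the HFD, compared with 6.47 ± 0.11 and 6.46 ± 0.08 (SD, n = 6 each) in WT livers, without overlap within a diet. Correlations between arrays ran from 0.952 to 0.993. One liver, replicate 1 of the *Ogg1*-/- chow group, stood apart from its group. It had the lowest *Mdm2*, *Ccng1* and *Sesn1* of that group and the highest *Gadd45a*, *Bbc3* and *Pmaip1*, so that values on chow are given with and without it. Hepatocyte markers such as *Alb* and *Ttr* were high in all 24 livers, with a list mean between 13.4 and 13.7 on the log2 scale. The number of arrays limits the precision.

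On the HFD, *Mdm2*, *Ccng1* and *Sesn1* fell in *Ogg1*-/- livers compared with WT livers, by between 0.56 and 0.77 on the log2 scale. The other 4 measured genes, *Gadd45a*, *Gadd45b*, *Bbc3* and *Pmaip1*, had differences of 0.12 to 0.34 above WT and did not pass the test. A gene was called at a p under 0.05 from limma, adjusted over all 35556 probe sets. On this diet 23.7% of all genes were called, and 11.8% of all genes were called and lower. The count of 3 of 7 is small, and no test of the set as a whole was made. The median difference of the 7 genes was 0.12, compared with 0.03 over all genes.

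*Mdm2* encodes the ubiquitin ligase that limits p53. In WT livers on the HFD its lowest, median and highest log2 values were 8.11, 8.38 and 8.58, and in *Ogg1*-/- livers they were 7.24, 7.57 and 7.90. Every *Ogg1*-/- liver lay below every WT liver. The means were 8.35 ± 0.23 and 7.58 ± 0.31 (SD, n = 6 each), and the difference was -0.77 (standard error 0.19, 95% interval -1.17 to -0.38, adjusted p = 0.00748 from limma). The *Ogg1*-/- signal was thus 58.5% of the WT signal, and the two-sided exact permutation test gave p = 0.00216, the smallest that 6 mice against 6 allow.

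*Ccng1* encodes cyclin G1, which brings a phosphatase to MDM2 and so takes part in the same feedback loop. Its lowest, median and highest log2 values on the HFD were 10.12, 10.40 and 10.60 in WT livers and 9.52, 9.84 and 10.02 in *Ogg1*-/- livers. Again the groups did not overlap, with the nearest livers of the 2 genotypes at 10.02 and 10.12. The difference in means was -0.56 (standard error 0.17, 95% interval -0.91 to -0.22, adjusted p = 0.0210 from limma), a signal of 67.8% of WT, and the exact permutation p was 0.00216. When WT replicate 6 or *Ogg1*-/- replicate 1 of the HFD groups was left out, the adjusted p of *Ccng1* rose to 0.0520 and 0.0579, past the threshold.

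*Sesn1* encodes sestrin 1, a stress protein that restrains the growth kinase complex mTORC1 by way of AMPK and GATOR2. Its values in WT livers on the HFD ran from 7.51 to 8.21 with a median of 7.93, and in *Ogg1*-/- livers from 6.83 to 7.49 with a median of 7.31. The highest *Ogg1*-/- liver and the lowest WT liver were close but did not overlap. The difference in means was -0.60 (standard error 0.16, 95% interval -0.94 to -0.26, adjusted p = 0.0128 from limma), a signal of 65.9% of WT, with an exact permutation p of 0.00216. Groups without overlap and with the *Ogg1*-/- livers lower were found for 7.99% of all genes on this diet. *Mdm2* and *Sesn1* were called with a fold of at least 1.5 (1.71 and 1.52), as were 6.12% of all genes in either direction. The fold of *Ccng1* was 1.48.

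**Figure D1:**
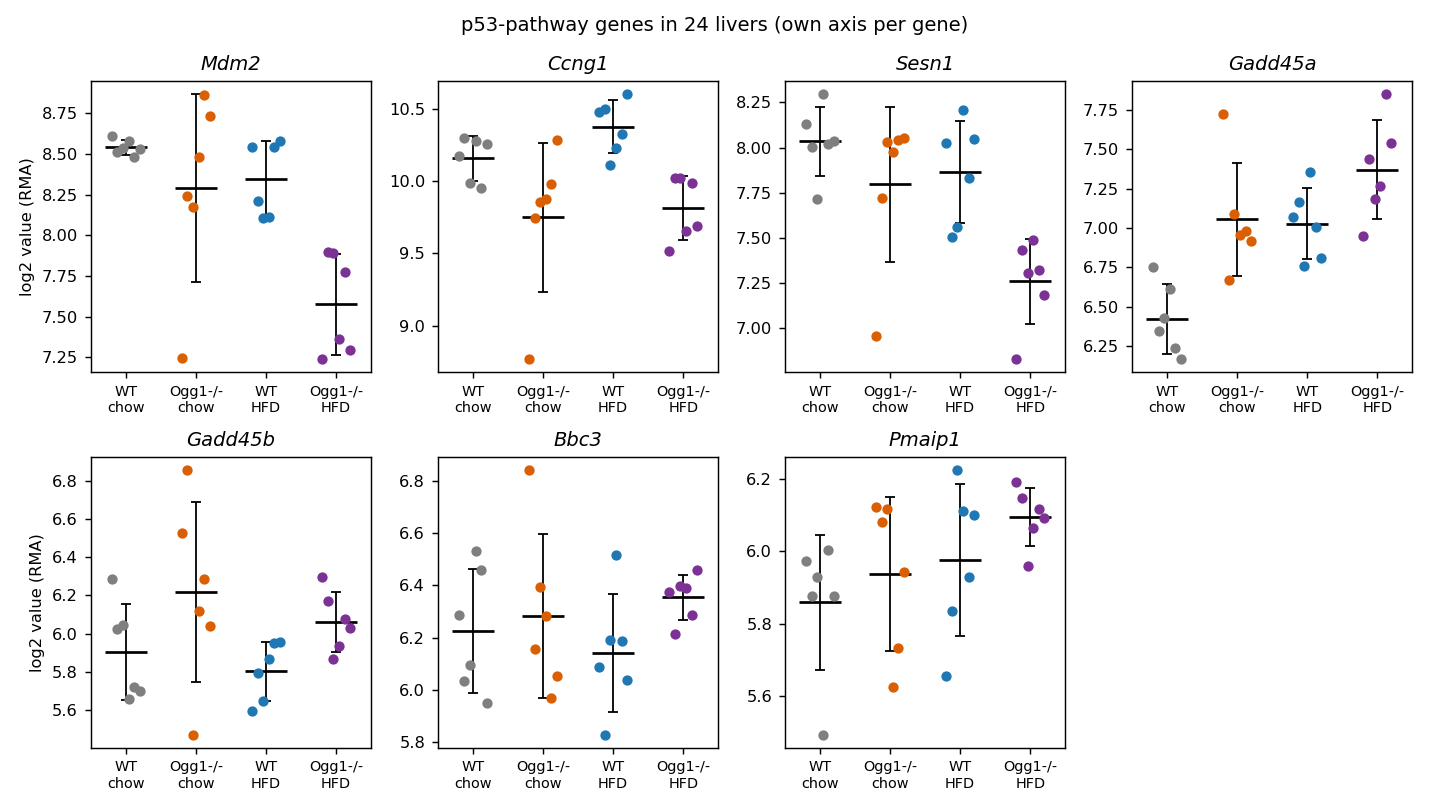
Log2 RMA values (vertical axis, a separate scale for each gene) of the 7 measured p53-pathway genes in 24 livers. One point stands for 1 mouse, with the mean of each group as a flat bar and the SD of its 6 mice as an upright bar; on the HFD the *Ogg1*-/- values of *Mdm2*, *Ccng1* and *Sesn1* lie below all WT values, and 1 *Ogg1*-/- liver on chow lies at 7.24 for *Mdm2* and at 8.77 for *Ccng1*.

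The growth arrest genes *Gadd45a* and *Gadd45b* encode small stress proteins that bind the kinase MAP3K4 and cell cycle regulators. For *Gadd45a* on the HFD, WT livers ran from 6.76 to 7.36 with a median of 7.04, and *Ogg1*-/- livers from 6.95 to 7.85 with a median of 7.35. The groups overlapped, and the difference of 0.34 (95% interval 0.02 to 0.67) did not pass the test (adjusted p = 0.133 from limma). For *Gadd45b*, WT livers ran from 5.60 to 5.96 with a median of 5.83, and *Ogg1*-/- livers from 5.87 to 6.30 with a median of 6.06. Of the 6 *Ogg1*-/- livers 4 lay above all WT livers, and the difference of 0.26 (95% interval -0.07 to 0.59) had an adjusted p of 0.280 from limma and an unadjusted exact permutation p of 0.0216.

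*Bbc3* and *Pmaip1* encode PUMA and NOXA, BH3-only proteins that promote mitochondrial cell death. *Bbc3* ran from 5.83 to 6.52 with a median of 6.14 in WT livers on the HFD, and from 6.22 to 6.46 with a median of 6.38 in *Ogg1*-/- livers. *Pmaip1* ran from 5.66 to 6.22 with a median of 6.01 in WT livers, and from 5.96 to 6.19 with a median of 6.10 in *Ogg1*-/- livers. For both genes all 6 *Ogg1*-/- values lay within the WT range. The differences were 0.21 (95% interval -0.06 to 0.48, adjusted p = 0.280 from limma) and 0.12 (95% interval -0.10 to 0.33, adjusted p = 0.484 from limma). Before adjustment, 4 of the 7 genes had a p under 0.05 on the HFD, as did 35.9% of all genes.

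On chow, no measured gene of the set was called by limma or by the methods' t-test (a separate equal-variance test per probe set), and 0.617% of all genes were called by limma. At an unadjusted p under 0.05, there were 2 of the 7 (*Ccng1* and *Gadd45a*), compared with 21.1% of all genes. The values of *Mdm2* in WT livers were tightly grouped, from 8.48 to 8.61 with a median of 8.53, while those of *Ogg1*-/- livers ran from 7.24 to 8.87 with a median of 8.36. The difference was -0.25 (95% interval -0.65 to 0.14, adjusted p = 0.502 from limma), and without replicate 1 of the *Ogg1*-/- chow group it was -0.04 (adjusted p = 0.943 from limma).

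*Ccng1* on chow ran from 9.95 to 10.30 with a median of 10.22 in WT livers, and from 8.77 to 10.28 with a median of 9.86 in *Ogg1*-/- livers. Of the *Ogg1*-/- livers 4 lay below all WT livers. The difference of -0.41 (95% interval -0.75 to -0.06) had an adjusted p of 0.209 from limma and an unadjusted exact permutation p of 0.0476, and it was -0.21 without replicate 1. *Sesn1* ran from 7.72 to 8.29 with a median of 8.03 in WT livers, and from 6.96 to 8.05 with a median of 8.004 in *Ogg1*-/- livers. Its medians were nearly equal, and the difference of -0.24 (adjusted p = 0.461 from limma) became -0.07 without replicate 1.

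*Gadd45a* showed the largest difference of the 7 genes on chow. Its lowest, median and highest log2 values were 6.17, 6.39 and 6.75 in WT livers and 6.67, 6.97 and 7.73 in *Ogg1*-/- livers. All but 1 of the *Ogg1*-/- livers lay above every WT liver. The difference of 0.63 (standard error 0.16, 95% interval 0.31 to 0.95) had an exact permutation p of 0.00433 but did not pass adjustment over all probe sets (adjusted p = 0.0711 from limma). It was 0.50 without replicate 1 (adjusted p = 0.149), and 0.66 without replicate 6 of the same group (adjusted p = 0.0399 from limma), so that the side of the threshold depended on single livers. *Gadd45b* ran from 5.66 to 6.29 in WT livers and from 5.47 to 6.86 in *Ogg1*-/- livers, a difference of 0.31 (adjusted p = 0.303 from limma) that was 0.25 without replicate 1. The cell death genes *Bbc3* (0.06, from 5.95 to 6.53 in WT and 5.97 to 6.84 in *Ogg1*-/- livers) and *Pmaip1* (0.08, from 5.49 to 6.004 and 5.62 to 6.12) had the smallest differences on chow. Without replicate 1 these were -0.06 for *Bbc3*, with the sign turned, and 0.04 for *Pmaip1* (adjusted p = 0.905 and 0.931 from limma).

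Whether the genotype difference changed with diet was tested by the interaction term. None of the 7 genes passed (0.00502% of all genes did), and none had an unadjusted p under 0.05, compared with 6.07% of all genes. For *Mdm2* the term (difference on the HFD minus that on chow) was -0.52, with a 95% interval of -1.08 to 0.04 (adjusted p = 0.745 from limma). For *Sesn1* the term was -0.37 (95% interval -0.84 to 0.11) and for *Gadd45a* -0.29 (95% interval -0.75 to 0.17). A fall that was called on the HFD and not on chow is therefore not shown to differ between the diets for any of these genes. Without replicate 1 of the *Ogg1*-/- chow group the interaction of *Mdm2* was -0.73 (adjusted p = 0.0567 from limma) and that of *Sesn1* -0.53 (adjusted p = 0.121).

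**Figure D2:**
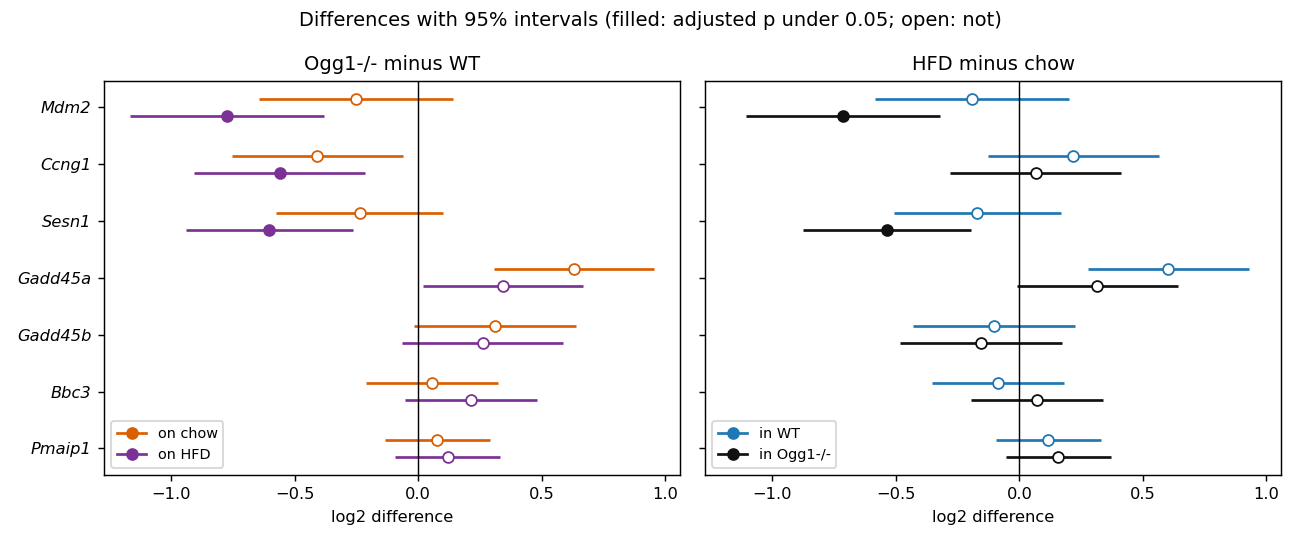
Log2 differences between group means (horizontal axis) with 95% intervals from limma for the 7 measured genes, between genotypes within each diet (left) and between diets within each genotype (right). Filled points have an adjusted p under 0.05; on the left these are *Mdm2*, *Ccng1* and *Sesn1* on the HFD, and on the right *Mdm2* and *Sesn1* in *Ogg1*-/- livers, all below 0.

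The diets were then compared within each genotype. These comparisons share livers with the genotype comparisons and do not add independent support to them. In WT livers, limma and the methods' t-test called none of the 7 genes (limma called 1.11% of all genes), and 1 gene, *Gadd45a*, had an unadjusted p under 0.05 (13.5% of all genes did). WT livers on the HFD lay above all WT livers on chow in *Gadd45a*, at 6.76 to 7.36 compared with 6.17 to 6.75, an absence of overlap seen for 2.37% of all genes. The difference of 0.60 (standard error 0.16, 95% interval 0.28 to 0.93) had an exact permutation p of 0.00216 and an adjusted p of 0.0677 from limma, which fell to 0.0176 when replicate 1 of the *Ogg1*-/- chow group was left out of the shared estimate of spread. Across the 4 groups, *Gadd45a* had its lowest mean in WT livers on chow (6.43 ± 0.22), its highest in *Ogg1*-/- livers on the HFD (7.37 ± 0.31), and means of 7.06 ± 0.36 and 7.03 ± 0.22 (SD, n = 6 each) in *Ogg1*-/- livers on chow and WT livers on the HFD.

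In *Ogg1*-/- livers, *Mdm2* and *Sesn1* were lower on the HFD than on chow, and none of the 7 genes was called higher. With array weights *Gadd45a* was called higher here (0.46, adjusted p = 0.0171) and between genotypes on the HFD (0.38, adjusted p = 0.0351 from limma). Without replicate 1 of the chow group it was also called higher here (0.45, adjusted p = 0.0189 from limma). Of all genes 11.5% were called in this comparison, and 5.87% were called and lower. *Mdm2* differed by -0.71 (standard error 0.19, adjusted p = 0.0216 from limma) and *Sesn1* by -0.54 (standard error 0.16, adjusted p = 0.0406 from limma). For both genes replicate 1 of the chow group lay within the range of the HFD group and the other 5 chow livers lay above it, and the exact permutation p was 0.0281 for *Mdm2* and 0.0238 for *Sesn1*. Without that liver the differences were -0.92 (adjusted p = 8.01e-05) and -0.70 (adjusted p = 0.000394 from limma). With the 12 *Ogg1*-/- arrays fitted alone, neither gene passed (adjusted p = 0.114 and 0.118 from limma). The calls also rested on single livers of both groups. *Mdm2* was not called without chow replicate 5 (-0.60, adjusted p = 0.0706) or 6 (-0.62, adjusted p = 0.0670), nor without HFD replicate 1 (-0.65, adjusted p = 0.0610) or 6 (-0.66, adjusted p = 0.0522 from limma). *Sesn1* was not called when any 1 of chow replicates 2 to 6 or HFD replicates 1, 2, 3, 5 and 6 was left out, with differences of -0.57 to -0.45 and adjusted p values of 0.0544 to 0.115 from limma. *Ccng1*, in contrast, differed by 0.07 between the diets in *Ogg1*-/- livers (95% interval -0.28 to 0.41).

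The levels of the 3 genes that fell moved together from mouse to mouse. After the group means were subtracted, the Pearson correlation over 24 livers was 0.89 between *Mdm2* and *Ccng1*, 0.71 between *Mdm2* and *Sesn1*, and 0.74 between *Ccng1* and *Sesn1*. Correlations were negative between *Bbc3* and both *Mdm2* (-0.64) and *Ccng1* (-0.69), and *Gadd45a* and *Gadd45b* had a correlation of 0.06. The arrays share their normalization and 1 liver lies far from the rest, so these values are a description. With the group means left in, r was 0.71 between *Mdm2* and *Ccng1*, 0.87 between *Mdm2* and *Sesn1* and 0.65 between *Ccng1* and *Sesn1*. On this footing, of all other genes, those best correlated with *Mdm2* over the 24 arrays were *Ugt2b34* (r = 0.944), *Nup54* (r = 0.943) and *Cops3* (r = 0.942). For *Ccng1* they were *Maob* (r = 0.946), *Hsd17b12* (r = 0.946) and *Dtx3l* (r = 0.935), and for *Sesn1* they were *Esyt2* (r = 0.956), *Asah1* (r = 0.943) and *Pstpip2* (r = 0.938). None of these 9 genes is in the gene lists of the pathway described below.

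The same livers differed along a broad axis that covers many genes. This axis is the first principal component of the differences between mice within the 2 chow groups, where it took up 40.2% of the variation, and replicate 1 of the *Ogg1*-/- chow group alone made up 59.2% of the squared deviations along it. Scores ran from -46.1 to -6.51 in WT livers on chow, from -42.1 to 80.9 in *Ogg1*-/- livers on chow, from -20.7 to 10.4 in WT livers on the HFD and from 18.5 to 54.8 in *Ogg1*-/- livers on the HFD. On the HFD the scores of the genotypes did not overlap. *Mdm2* in the liver at 80.9 was 7.24, which is within the range of the *Ogg1*-/- livers on the HFD, while the other 5 *Ogg1*-/- livers on chow lay between 8.17 and 8.87.

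With the axis score as a covariate in a second limma fit, the HFD differences shrank to -0.33 for *Mdm2* (adjusted p = 0.202), -0.13 for *Ccng1* (adjusted p = 0.517) and -0.25 for *Sesn1* (adjusted p = 0.333 from limma). None of the 7 genes was then called on the HFD, and 2.94% of all genes were called. In the same fit *Ccng1* was higher on the HFD than on chow in WT livers (0.43, adjusted p = 0.00835) and in *Ogg1*-/- livers (0.40, adjusted p = 0.0104 from limma), comparisons in which that fit called 2.11% and 5.66% of all genes. When the axis was built from the 11 other chow arrays, its scores correlated with the first ones at 0.969 over 24 arrays, and the HFD differences were -0.41, -0.21 and -0.32, none of which passed (adjusted p = 0.152, 0.385 and 0.240 from limma). Between the diets *Ccng1*, called with the first score, was not called with the score of 11 arrays (0.45, adjusted p = 0.0600 in WT livers, and 0.37, adjusted p = 0.0919 in *Ogg1*-/- livers, from limma). As the genotypes do not overlap along the axis on the HFD, a difference in the 3 genes that goes with OGG1 loss and one that goes with the axis cannot be told apart there.

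**Figure D3:**
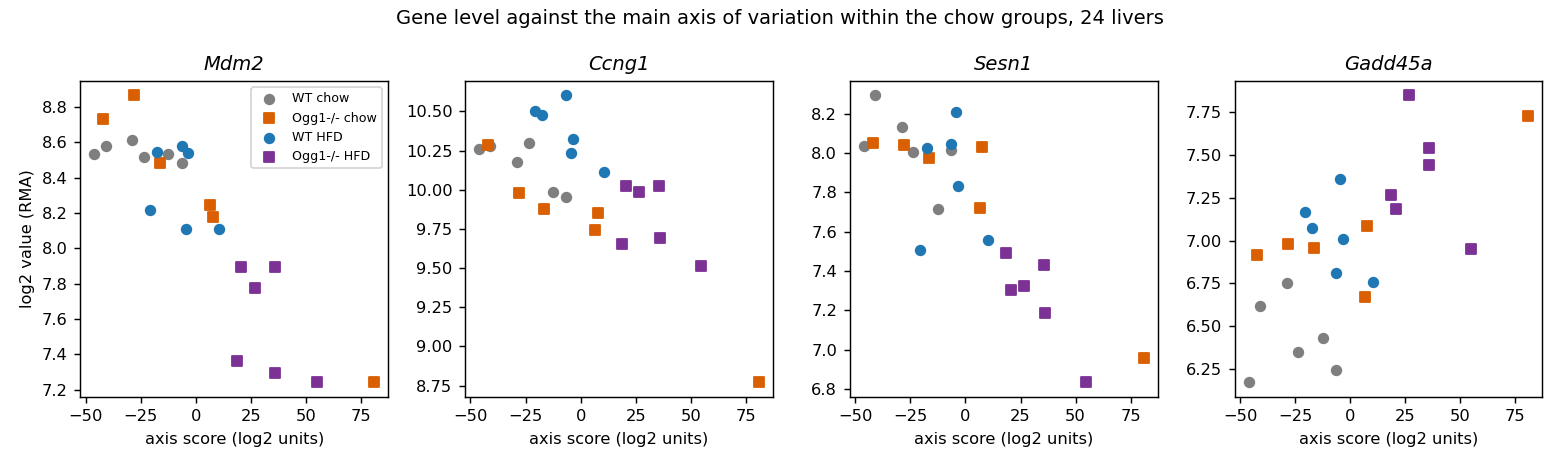
Log2 RMA values of *Mdm2*, *Ccng1*, *Sesn1* and *Gadd45a* (vertical axes) against the axis score drawn from the chow livers (horizontal axis, a principal component score in log2 units) in 24 livers. Each point is a mouse, with circles for WT and squares for *Ogg1*-/-; the *Ogg1*-/- livers on the HFD lie between 18.5 and 54.8, the liver at 80.9 is replicate 1 of the *Ogg1*-/- chow group, and *Mdm2*, *Ccng1* and *Sesn1* are lower at high scores.

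The wider pathway was read from 6 gene lists, leaving out the 10 genes above, with 134 measured genes in all. On the HFD 44 of them, or 32.8%, were called, compared with 23.7% of all genes, of which 18 were higher and 26 were lower in *Ogg1*-/- livers. On chow 3 of the 134 were called (2.24%, compared with 0.617% of all genes), and none was called in the interaction. With the axis score as a covariate, 7 of the 134 were called on the HFD (5.22%, compared with 2.94% of all genes), which were *Wee1*, *Bid*, *Xiap*, *Mios*, *Perp*, *Bcl2l1* and *Ccnd3*. As the lists were chosen with earlier results of these data known, a share above that of all genes is a description and not a test. The genes named below for the HFD are the called genes of each list with the largest differences, so their sizes do not describe the lists as a whole.

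Among 16 core regulators of p53, 4 were lower and 1 was higher on the HFD, with a median difference of -0.19. *Usp7*, which encodes a deubiquitinase of MDM2 and p53, fell by 0.79 (adjusted p = 0.00744 from limma). *Mdm4*, which encodes the MDM2 partner that blocks p53 transcriptional activity, fell by 0.52 (adjusted p = 0.0169), from a mean of 7.91 ± 0.18 to 7.39 ± 0.30 (SD, n = 6 each). The acetyltransferase gene *Crebbp* fell by 0.43 (adjusted p = 0.0203) and *Rpl5*, whose ribosomal protein can bind and inhibit MDM2, by 0.37 (adjusted p = 0.0369 from limma). *Usp7* and *Crebbp* did not overlap between the genotypes, while *Mdm4* and *Rpl5* did. None of the 16 passed on chow, where *Ube2d1*, which encodes a ubiquitin-conjugating enzyme, had the smallest p (0.26, adjusted p = 0.162 from limma).

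Among 34 other p53 target genes, 4 were higher and 3 were lower on the HFD, with a median of 0.09. *Trp53inp1*, which encodes a stress protein that promotes p53 activity, fell by 0.77 (adjusted p = 0.00525), and *Fas*, which encodes the death receptor, fell by 0.57 (adjusted p = 0.0184 from limma). *Dcxr*, which encodes dicarbonyl and L-xylulose reductase, rose by 0.52 (adjusted p = 0.00329), and *Perp*, which encodes a desmosomal membrane protein, rose by 0.49 (adjusted p = 0.00264 from limma). The 7 called genes are 20.6% of this list, compared with 23.7% of all genes, and 27 of the 34 did not pass. On chow none of these 34 passed, and *Ercc5*, which encodes a nucleotide excision repair nuclease, had the smallest p (-0.41, adjusted p = 0.110 from limma).

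Damage-sensing kinases and checkpoint mediators included 8 lower and 3 higher genes of 24 on the HFD, with a median of -0.10. *Wee1*, whose kinase holds CDK1 inactive, rose by 0.95 (adjusted p = 0.000189 from limma, standard error 0.12). *Hus1*, part of the checkpoint clamp, *Atr*, the kinase activated by stalled replication forks, and *Rnf168*, which ubiquitinates histones at breaks, fell by 0.57, 0.56 and 0.53 (adjusted p = 0.0381, 0.0241 and 0.00306 from limma). The other genes called higher, named here after their values were seen, were *H2ax* (0.50, adjusted p = 0.0137) and *Rad1*, another part of that clamp (0.42, adjusted p = 0.0136 from limma). *Wee1* was also higher on chow, where its values ran from 6.69 to 7.14 in WT livers and from 8.19 to 8.64 in *Ogg1*-/- livers, which differ by 1.40 in their means (adjusted p = 5.39e-07 from limma). In WT livers it was higher on the HFD than on chow by 1.13 (adjusted p = 1.49e-05 from limma). *Wee1* is also driven by the circadian clock. As the sources used here do not state when livers were collected, time of day and genotype or diet cannot be told apart for it. The collection time is equally unknown for all other genes, *Mdm2*, *Ccng1*, *Sesn1* and *Gadd45a* included, and its part in their differences was not tested.

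Of 17 genes of the BCL-2 family and the apoptosome, 4 were higher and 2 were lower on the HFD, with a median of 0.18. *Bid*, which links death receptors to mitochondria, fell by 1.02 (adjusted p = 2.43e-06 from limma, standard error 0.0958), with *Ogg1*-/- livers from 6.12 to 6.46 and WT livers from 7.02 to 7.38. It was lower by a similar amount on chow (-0.75, adjusted p = 8.79e-05 from limma). *Bid* lies on chromosome 6 within 10 Mb of *Ogg1* in the GRCm38.p6 annotation, and whether DNA flanking the null allele differs between the genotypes was not tested. *Gadd45a* is on the same chromosome but outside that window. *Xiap*, a caspase inhibitor gene, fell by 0.84 (adjusted p = 0.00437), while the survival gene *Bcl2l1* rose by 0.48 (adjusted p = 0.00278) and the pore-forming effector gene *Bak1* by 0.47 (adjusted p = 0.0350 from limma).

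Partners of sestrins and GADD45 proteins were lower in 7 of 18 genes and higher in 1 on the HFD, with a median of -0.12. *Prkaa2*, which encodes a catalytic subunit of AMPK, fell by 0.91 (adjusted p = 0.00439), and *Mios*, which encodes a subunit of the GATOR2 complex that sestrins bind, fell by 0.85 (adjusted p = 0.00202 from limma). *Sesn3*, a paralogue of *Sesn1*, fell by 0.62 (adjusted p = 0.00338) and *Tsc1*, a brake on mTORC1, by 0.48 (adjusted p = 0.00773 from limma). Another paralogue, *Sesn2*, had a difference of 0.35 above WT and did not pass (adjusted p = 0.159 from limma). *Sesn3* was also called on chow, with values from 7.13 to 7.91 in *Ogg1*-/- livers and from 7.85 to 8.56 in WT livers (-0.57, adjusted p = 0.0469 from limma). That call on chow was lost with either axis score as a covariate (adjusted p = 0.162 from limma with the first), and with median centring of the arrays, array weights, only the 12 chow arrays, the methods' t-test or a fold of at least 1.5.

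Of 26 cell cycle genes, a list that also holds CDK inhibitor genes other than *Cdkn1a*, 5 were higher and 2 were lower on the HFD, with a median of 0.17. *Rb1*, the retinoblastoma gene that restrains entry into S phase, fell by 0.72 (adjusted p = 0.0162 from limma). *Ccnd3*, *Cdk2* and *E2f1*, which promote that entry, rose by 0.62, 0.59 and 0.56 (adjusted p = 0.00337, 0.00442 and 0.0101 from limma). The other called genes, named here after their values were seen, were *Cdkn1b*, which encodes a CDK inhibitor (0.34, adjusted p = 0.00830), *Cdk4* (0.34, adjusted p = 0.0319) and *Lin9*, part of a complex that controls cell cycle genes (-0.46, adjusted p = 0.0114 from limma). The proliferation markers *Mki67* (0.0060) and *Top2a* (-0.02) and the cyclin genes *Ccna2* (-0.29) and *Ccnb2* (0.06) did not pass. None of the 26 passed on chow, where *Ccne1*, encoding cyclin E1, did not overlap between the genotypes and came closest (0.42, adjusted p = 0.0587 from limma).

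**Figure D4:**
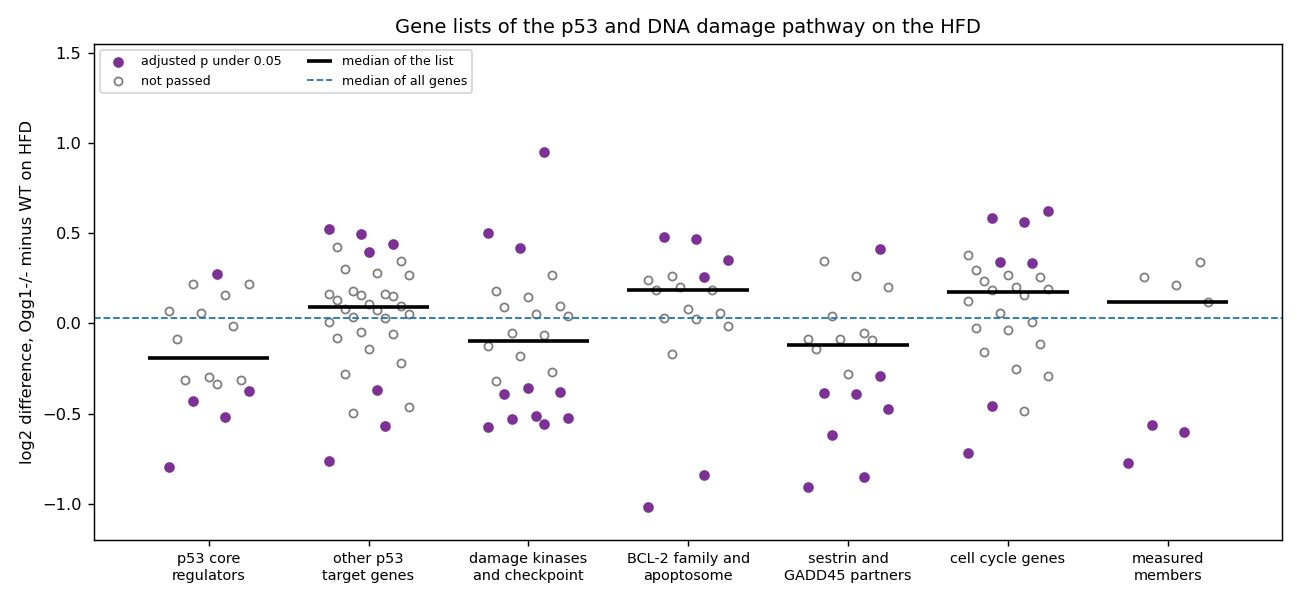
Log2 difference of *Ogg1*-/- minus WT livers on the HFD (vertical axis) for each gene of 6 lists of the p53 and DNA damage pathway, without the 10 genes of the set, and for the 7 measured genes of the set (right). Each point is a gene, filled where the adjusted p is under 0.05; black bars are list medians, the dashed line is the median of all genes (0.03), and both directions occur in every list.

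Some markers of liver cell types also differed on the HFD, where 23.7% of all genes were called and 11.8% were called and lower. Hepatocyte markers did not pass in any of 6 genes. Of 6 sinusoidal endothelial markers 4 were lower in *Ogg1*-/- livers (*Stab2*, *Kdr*, *Pecam1* and *Clec4g*), and the mean log2 value of the list ran from 8.38 to 8.61 in *Ogg1*-/- livers and from 8.75 to 9.13 in WT livers, without overlap. Of the stellate markers 2 of 6 were lower (*Lrat* and *Dcn*), of the Kupffer cell markers 2 were lower (*Clec4f* and *Vsig4*) and 1 was higher (*Cd5l*), of the lymphocyte markers *Nkg7* of 4 was higher, and the erythroid gene *Alas2* was higher. None of 4 cholangiocyte markers passed, and on chow no marker of any list passed. In bulk liver, fewer cells of a type and less RNA per cell cannot be told apart, and the part of these markers in the fall of *Mdm2*, *Ccng1* and *Sesn1* was not tested.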

How the data were processed

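The authors deposited log2 signals per probe set for 24 arrays, each of a separate mouse. The submitters' processing notes name RMA and the methods name GC-RMA, and which of them made the table, and the genome build, are not given in the sources used here. Of 35556 probe sets, 21789 carry 1 symbol in the platform table, 1621 carry several and 12146 are unnamed. Of those with 1 symbol, 21698 were matched to the RefSeq annotation by Entrez identifier and took the symbol given there. The probe set with the highest mean stood for a gene. A 4-group linear model was fitted to all probe sets with limma 3.58.1 in R 4.3.3, with Benjamini-Hochberg adjustment. Exact permutation tests used 12 arrays each. The pipeline was tested on simulated data. Alternatives were scaling, a filter on dim probe sets, other variance settings, array weights, fewer arrays, the methods' t-test, the replicate number as a block, each array left out, an axis score as a covariate, and a fold limit. Named genes were all measured genes of the set, up to 4 called genes per list and genotype comparison with the largest differences (or the 1 with the smallest p), and the 3 best correlated genes. The genes and lists were chosen with earlier results of these data known. Promoter windows came from RefSeq, and no protein sequences were used here.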

Additional observations from a re-analysis of the deposited data

Results flagged for a closer look

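Among 28 groups of 6 livers (7 genes in 4 groups), 3 had an extreme liver whose gap to the nearest other, divided by the range of the group, was above Dixon's 95% critical value, as chance gives in about 1 of 20 groups. In the *Ogg1*-/- chow group, replicate 1 had a *Ccng1* log2 value of 8.77, with the nearest liver at 9.74 (ratio 0.643). The same liver had a *Sesn1* value of 6.96, with the nearest at 7.72 (ratio 0.700). In the WT chow group, replicate 4 had a *Pmaip1* value of 5.49, with the nearest at 5.88 (ratio 0.750).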

How the results depend on the processing

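Counts are of the 7 measured genes called. On the HFD, 3 genes were called between genotypes and 0 were with the axis score as a covariate or with the score built from 11 chow arrays, the latter chosen after seeing the data. Between diets in WT livers the count was 0, and 1 with the filter on dim probe sets, with array weights, with only the 12 arrays compared and with the axis score. The gene called was *Ccng1* with the axis score and *Gadd45a* in the other settings, each higher on the HFD. In *Ogg1*-/- livers it was 2, and 0 with only 12 arrays, with the methods' t-test and with the score of 11 arrays. It was 1 with a fold of at least 1.5 (*Mdm2*, lower) and 1 with the axis score (*Ccng1*, higher). With the axis score neither *Mdm2* (-0.36, adjusted p = 0.116) nor *Sesn1* (-0.26, adjusted p = 0.275 from limma) was called between diets in these livers. With array weights, *Gadd45a* was also called higher, for a count of 4 between genotypes on the HFD and of 3 between diets in *Ogg1*-/- livers. With 1 array left out, counts ran from 0 to 1 between genotypes on chow, from 2 to 3 on the HFD, from 0 to 0 for the interaction, from 0 to 1 between diets in WT livers and from 0 to 3 in *Ogg1*-/- livers. On the HFD *Mdm2* and *Sesn1* were called in all 24 such fits and *Ccng1* in 22. The cause of these changes was not tested.

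Samples with the same replicate number did not deviate together (36 pairs, r from -0.27 to 0.43), and with the replicate number as a block the counts were 0 on chow, 3 on the HFD, 0 for the interaction, 0 between diets in WT livers and 2 in *Ogg1*-/- livers.

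Reversed differences were all in comparisons where the gene was not called in the fit reported. With array weights they were *Bbc3* on chow (-0.0011), the interaction of *Gadd45b* (0.0875) and *Ccng1* between diets in *Ogg1*-/- livers (-0.0393). With the axis score they were *Mdm2* (0.0651), *Sesn1* (0.0158), *Bbc3* (-0.112) and *Pmaip1* (-0.0379) on chow, *Bbc3* (-0.0238) and *Pmaip1* (-0.0437) on the HFD, the interaction of *Pmaip1* (-0.0058), *Mdm2* (0.0285) and *Sesn1* (0.0062) between diets in WT livers, and *Bbc3* in *Ogg1*-/- livers (-0.114). With the score of 11 arrays they were *Mdm2* (0.0336), *Bbc3* (-0.0961) and *Pmaip1* (-0.0569) on chow, *Pmaip1* (-0.0498) on the HFD, *Mdm2* (0.0423) and *Sesn1* (0.0158) between diets in WT livers and *Bbc3* in *Ogg1*-/- livers (-0.0926). With 1 array left out, *Bbc3* on chow ran from -0.0555 to 0.119, the interaction of *Gadd45b* from -0.199 to 0.0771, that of *Pmaip1* from -0.0231 to 0.114, and *Ccng1* between diets in *Ogg1*-/- livers from -0.131 to 0.172. Each gene has 1 probe set, so a mean over probe sets gave no other value, and the interaction has no value from the methods' t-test or a 12-array fit.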
